A study of Mus musculus with 2 samples.

Results

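Immediate early response genes are transcribed within minutes of a growth factor, a mechanical or osmotic stress or a wound, without the need for new protein. Their promoters are held ready by resident factors, among them the serum response factor SRF with its ELK partners and the cAMP response element binding factor CREB, which MAP kinases and other kinases activate. Most of their transcripts are short-lived, so that their level at freezing depends on signalling in the tissue and on its handling after dissection. The products are mainly transcription factors, with phosphatases that end the signal. In cancer cell lines, one of them, the dimeric factor AP-1 of Fos and Jun proteins, shares enhancers with TEAD, the DNA-binding partner of TAZ.

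The 10 genes described here are Fos, Fosb, Jun, Junb, Egr1, Atf3, Dusp1, Ier2, Nr4a1 and Klf4, chosen by name from 18193 mouse genes with a probe set. Earlier results of these data were known when they were chosen. A probe set is a group of short oligonucleotides on the array that together report 1 transcript. All 10 were found, with 12 probe sets that the platform annotation assigns to one of them alone, out of 34945 such probe sets in all. Jun and Klf4 had 2 probe sets each and the other 8 genes had 1 each. None of the 12 carried the suffix of a set with shared or cross-hybridising probes.

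The samples were whole lungs of TAZ-deficient mouse embryos and of their wild type littermates, taken at E15.5 (days of embryonic development), when the airways are still branching. TAZ is the product of Wwtr1 and a transcriptional coactivator that the Hippo kinases restrain. Total RNA was extracted from frozen tissue, 4 RNA samples were mixed per group, and each pool was hybridised to 1 Affymetrix Mouse Genome 430 2.0 array, for 2 arrays in all. The sources used here do not give how the TAZ deficiency was made, the strain, the number of litters or the time from dissection to freezing. With 1 pool and 1 array per group, no difference below has a replicate check, and no test, SD or p-value between the groups can be given. Precision is limited throughout by there being only 2 arrays. In whole lung, fewer cells of a type and less RNA per cell cannot be told apart.

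The arrays matched their labels in the signal of Wwtr1. Wwtr1 read 11.3 signal units in the TAZ-deficient pool, against 791.2 in the wild type pool, at its probe set with the highest signal, and the other 2 probe sets were also below the floor in the TAZ-deficient pool. The median signal was 15.1 in the TAZ-deficient pool and 15.2 in the wild type pool. Both arrays had a trimmed mean of 100.0, so their similar signal was set by scaling and is no check of the pools. The signal of the 3' control probe set over the 5' one, a sign of RNA integrity, was 1.21 for Actb and 0.82 for Gapdh in the TAZ-deficient pool, against 1.23 and 0.79 in the wild type pool. All 7 listed lung epithelium genes, all 7 lung mesenchyme genes, all 5 endothelial and all 6 leukocyte genes were measured, that is, above the median of all values (15.2, used as a floor) on at least 1 array. Their median log2 ratios (TAZ-deficient over wild type) were 0.15 for epithelium, -0.03 for mesenchyme, 0.00 for endothelium and -0.09 for leukocytes, against -0.01 over all measured genes. Of the genes listed as markers of other organs, 1 of 4 liver genes, 1 of 4 thymus genes and 2 of 5 heart genes were measured. The 2 heart genes, Myl7 and Tnnt2, summed to 66.3 in the TAZ-deficient pool and 114.2 in the wild type pool, while Myh6, Nppa and Nkx2-5 were below the floor on both arrays. The tissue in which this signal arose, and the part of all these cell types in the values below, were not tested.

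The promoters of 8 of the 10 genes, all but Egr1 and Ier2, were read from the RefSeq promoter table (build GRCm38.p6). It covers 250 bases before to 50 after each gene's start. These promoters were searched for motifs of factors that can act on this group of genes, and the motifs were chosen with the promoters in view. TGACG, the half-site of the cAMP response element, was found on either strand in 7 of the 8 (Fos, Fosb, Junb, Atf3, Dusp1, Nr4a1 and Klf4), against 20.8% of all 32817 promoters in the table. The full palindrome TGACGTCA, which contains the half-site on both strands, was in the promoter of Dusp1 alone, against 1.79% of all promoters. The EGR motif GCGGGGGCG was in those of Fosb, Nr4a1 and Klf4, against 2.91%. The TEAD motif GGAATG was found in 1 of the 8, that of Nr4a1, against 14.7% of all promoters. Neither the AP-1 motif TGACTCA (5.20% of all promoters) nor the CArG box of SRF (1.63%) was found in any of the 8 windows. Sites farther from the start, and any of Egr1 and Ier2, were not searched, so these genes may have such motifs elsewhere. A match is a run of letters and not a shown binding site.

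Promoters with several half-sites are printed 5' to 3' along the gene's strand, with TGACG, or its complement CGTCA, and the TEAD motif (here as CATTCC) in capitals. Fos lies on the plus strand (chr12:85473640-85473939), with its half-sites beginning 129 and 66 bases before the start. Nr4a1 is also on the plus strand (chr15:101266596-101266895), with 4 half-sites. Dusp1 is on the minus strand (chr17:26508423-26508722), with 3 half-sites, of which 2 overlap as the palindrome 143 bases before the start.
Fos: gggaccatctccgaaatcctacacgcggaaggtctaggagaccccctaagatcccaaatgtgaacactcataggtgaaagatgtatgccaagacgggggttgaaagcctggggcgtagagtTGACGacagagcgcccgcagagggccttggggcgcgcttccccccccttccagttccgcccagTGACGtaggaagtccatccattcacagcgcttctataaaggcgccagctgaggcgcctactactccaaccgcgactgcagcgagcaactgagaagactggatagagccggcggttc
Nr4a1: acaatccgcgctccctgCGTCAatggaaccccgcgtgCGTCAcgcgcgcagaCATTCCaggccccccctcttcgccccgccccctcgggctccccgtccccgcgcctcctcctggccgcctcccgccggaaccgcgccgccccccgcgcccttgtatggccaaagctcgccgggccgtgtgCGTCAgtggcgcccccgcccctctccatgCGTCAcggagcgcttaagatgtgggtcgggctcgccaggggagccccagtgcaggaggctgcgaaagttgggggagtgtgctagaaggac
Dusp1: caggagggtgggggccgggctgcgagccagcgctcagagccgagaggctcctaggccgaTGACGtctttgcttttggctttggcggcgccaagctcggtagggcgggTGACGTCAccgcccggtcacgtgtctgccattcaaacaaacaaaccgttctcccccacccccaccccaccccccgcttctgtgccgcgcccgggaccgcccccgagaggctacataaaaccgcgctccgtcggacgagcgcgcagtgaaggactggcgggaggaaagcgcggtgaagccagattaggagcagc

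As a group, the immediate early genes had nearly the same signal in the TAZ-deficient and the wild type pool. Of the 10 genes, 9 were measured, all above the floor on both arrays, and none was at least 1.5-fold different in either direction. Over all 12040 measured genes, 1.27% were at least 1.5-fold higher and 1.48% at least 1.5-fold lower in the TAZ-deficient pool, 2.75% in all. The log2 ratios (TAZ-deficient over wild type) ran from -0.17 for Fos to 0.34 for Atf3, with 5 above 0 and 4 below. Their median was 0.03, against -0.01 over all measured genes, and the median distance from 0 was 0.10, against 0.11. A gene with 2 probe sets is represented in these counts by the one with the higher mean log2 signal. Genes with lower signal scatter more on these arrays. With the measured genes ranked by mean signal and cut into 4 bands of 3010 genes, 8.34% were 1.5-fold different either way in the lowest band, 1.93% in the second, 0.465% in the third and 0.266% in the highest. Fos, Junb and Atf3 were in the lowest band, Nr4a1 in the second, Egr1, Dusp1 and Klf4 in the third and Jun and Ier2 in the highest.

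**Figure D1:**
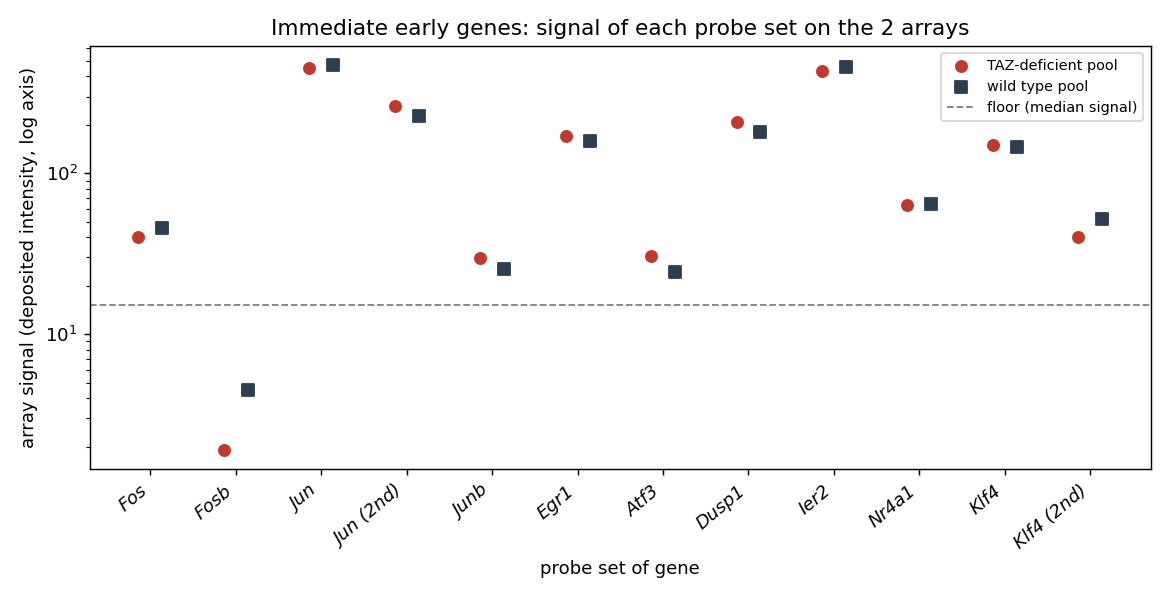
Deposited signal (log axis) of the 12 probe sets of the 10 genes, with the TAZ-deficient pool as red circles and the wild type pool as dark squares, 1 array each and so without error bars; the dashed line is the floor of 15.2. The symbols of each pair lie close together for all genes above the floor, and both Fosb values, 1.9 (TAZ-deficient) and 4.5 (wild type), lie below it.

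The Fos proteins form AP-1 only as dimers with a Jun protein. Fos, the best known of them, read 40.4 in the TAZ-deficient pool and 45.4 in the wild type pool, 1.12-fold lower (log2 ratio -0.17). Of all measured genes, 34.0% were at least as far from a ratio of 1, and 58.5% of those in the same signal band. Fosb, its close relative, read 1.9 in the TAZ-deficient pool and 4.5 in the wild type pool. Both values were below the floor, so no fold is given. Over both genes, a ratio could thus be given for Fos alone, which read 5.0 signal units lower in the TAZ-deficient pool.

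The Jun proteins can pair with each other or with Fos proteins. The probe set of Jun with the higher signal read 454.7 in the TAZ-deficient pool and 470.3 in the wild type pool (1.03-fold lower), and the other read 264.0 in the TAZ-deficient pool and 226.5 in the wild type pool (1.17-fold higher). The log2 ratios of -0.05 and 0.22 thus pointed in opposite directions for the same gene and were 0.27 apart. Junb, a Jun protein that is a weaker activator than Jun at many sites, read 29.9 in the TAZ-deficient pool and 25.4 in the wild type pool. That is 1.18-fold higher (log2 ratio 0.24) on a difference of 4.5 signal units, and 45.2% of genes in its signal band were at least as far from 0.

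Atf3, a stress-induced factor with a basic leucine zipper that can pair with Jun proteins, had the ratio farthest from 0 among the 9 representing probe sets. It read 30.7 in the TAZ-deficient pool and 24.2 in the wild type pool, 1.27-fold higher (log2 ratio 0.34), a difference of 6.5 signal units. Among all measured genes 11.2% were at least as far from 0, and 28.6% of those in its signal band. At a lower threshold, a log2 ratio of at least 0.32 in size, Atf3 was the only 1 of the 9 counted as higher and none was counted as lower, where 5.68% of all measured genes were higher and 7.03% lower by that much.

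Egr1 and Klf4 are zinc finger factors. Egr1, which growth factors and shear stress induce through SRF, read 171.5 in the TAZ-deficient pool and 159.5 in the wild type pool (1.08-fold higher). Klf4, a factor of epithelial and vascular differentiation, read 149.0 in the TAZ-deficient pool and 146.3 in the wild type pool at its representing probe set (1.02-fold higher). Its second probe set read 39.9 in the TAZ-deficient pool and 52.2 in the wild type pool, 1.31-fold lower. The direction for Klf4 therefore depended on the probe set, with log2 ratios of 0.03 and -0.39.

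Nr4a1 (NUR77), an orphan nuclear receptor induced by many stimuli, read 63.7 in the TAZ-deficient pool and 64.8 in the wild type pool (1.02-fold lower). Ier2, a small nuclear protein of the serum response, read 433.8 in the TAZ-deficient pool and 459.2 in the wild type pool (1.06-fold lower). Dusp1 (MKP-1), the phosphatase that switches off the p38 and JNK kinases after they have induced it, read 207.2 in the TAZ-deficient pool and 179.7 in the wild type pool, 1.15-fold higher (log2 ratio 0.21). In its signal band, 18.2% of genes were at least as far from 0, the lowest such share among the 9 genes.

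**Figure D2:**
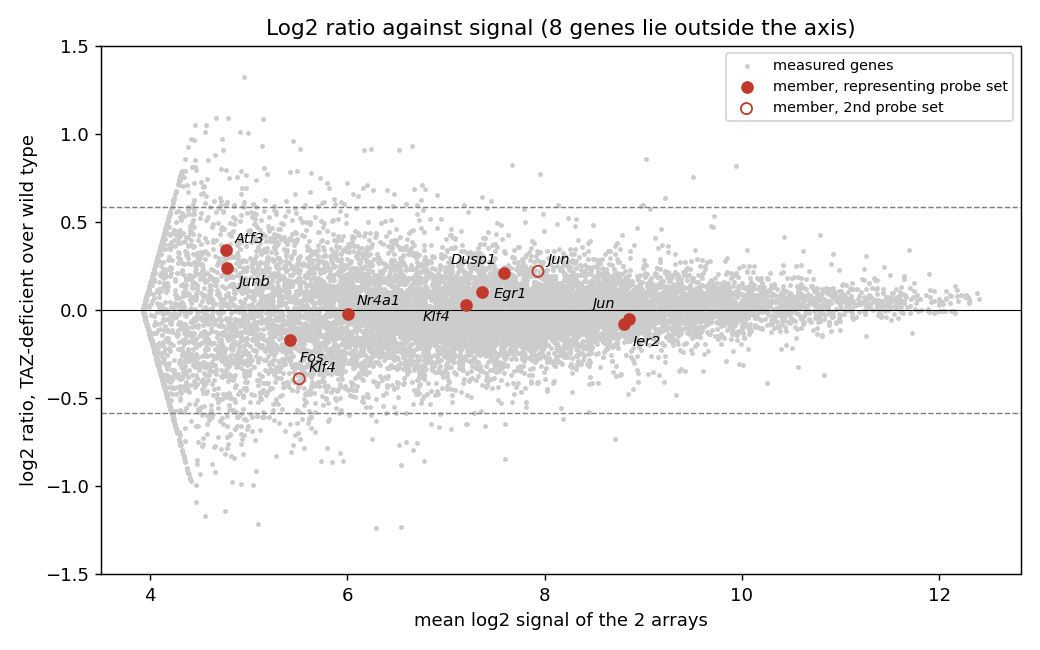
Log2 ratio (TAZ-deficient over wild type) against the mean log2 signal of the 2 arrays, for all measured genes (grey) and for the 11 probe sets of immediate early genes above the floor (red; open circles are the second probe sets of Jun and Klf4). Dashed lines mark 1.5-fold, all red points lie between them, and 8 measured genes lie outside the plotted range.

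How far the probe sets of a gene disagree is the only error estimate to be had from 2 arrays, and it holds no variation between embryos, pools or labelling reactions. In 5201 genes, 2 or more probe sets were above the floor on both arrays. The SD of the difference in log2 ratio within the pair of highest signal, scaled to a single probe set, was 0.19. The pair had opposite signs in 41.2% of these genes, and in both Jun and Klf4. The gap of 0.27 for Jun was reached or passed by 24.1% of the genes and that of 0.41 for Klf4 by 11.0%. Among the 9 representing ratios, those of Atf3 (0.34), Junb (0.24) and Dusp1 (0.21) were farther from 0 than this SD, each of them resting on 1 probe set. The SD is taken over genes of all signal levels. In the lowest signal band, that of Atf3 and Junb, the median distance from 0 of all genes was already 0.21.

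The relatives of these genes were next set beside them, from lists of 18 other immediate early transcription factors and 27 other immediate early effectors. Of these 45 genes 37 were measured, with 17 ratios above 0, 19 below and a median log2 ratio of -0.01, against -0.01 over all measured genes. None was 1.5-fold higher and 1 was 1.5-fold lower, where 1.27% of all measured genes were higher and 1.48% lower. The 1 gene was Mafk, a small Maf protein that lacks an activation domain (38.9 in the TAZ-deficient pool and 60.7 in the wild type pool, log2 ratio -0.64, 1 probe set). Its relative Maff, shown because it lay closest to the threshold on the other side, read 46.9 in the TAZ-deficient pool and 31.9 in the wild type pool (log2 ratio 0.56). These genes and the paralogues below, apart from Mafk, Jund, Myc, Btg1 and Zfp36l1, were picked after their values were seen.

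Within the Fos and Jun families, Fosl2 read 109.4 in the TAZ-deficient pool and 107.2 in the wild type pool at one probe set, and 18.5 in the TAZ-deficient pool and 22.1 in the wild type pool (log2 ratio -0.26) at the other. Fosl1 was below the floor on both arrays. Jund, the Jun protein least dependent on stimulation, read 449.6 in the TAZ-deficient pool and 394.4 in the wild type pool (log2 ratio 0.19). Of the EGR family, Egr3 read 55.0 in the TAZ-deficient pool and 59.2 in the wild type pool, and Egr2 and Egr4 were below the floor on both arrays. Of the NR4A receptors, Nr4a2 read 51.1 in the TAZ-deficient pool and 50.4 in the wild type pool, and its other measured probe sets had log2 ratios of -0.32 and -0.14, and of 0.26 at one above the floor in the TAZ-deficient pool alone. Nr4a3 was above the floor in the wild type pool alone (3.8 in the TAZ-deficient pool and 18.8 in the wild type pool, at least 1.24-fold lower). Each of the Fos and EGR families thus had members below the floor in both pools.

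Among the Krüppel-like factors related to Klf4, Klf2, which blood flow induces in endothelium, read 120.7 in the TAZ-deficient pool and 143.9 in the wild type pool (log2 ratio -0.25). Klf10, a TGF-beta-inducible member, read 200.9 in the TAZ-deficient pool and 227.4 in the wild type pool (log2 ratio -0.18). Klf6 read 206.9 in the TAZ-deficient pool and 185.5 in the wild type pool, with log2 ratios between -0.29 and 0.20 over its 4 measured probe sets. Myc, a growth regulator, read 247.5 in the TAZ-deficient pool and 255.0 in the wild type pool.

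The MAP kinase phosphatases differed among themselves in direction. Dusp6, which acts on ERK and is a readout of FGF signalling, read 678.6 in the TAZ-deficient pool and 613.7 in the wild type pool (log2 ratio 0.15), as Dusp1 also had a positive ratio. Dusp2 read 43.6 in the TAZ-deficient pool and 50.9 in the wild type pool (log2 ratio -0.22), Dusp4 read 49.9 in the TAZ-deficient pool and 52.5 in the wild type pool, and Dusp5 read 21.1 in the TAZ-deficient pool and 21.3 in the wild type pool. No log2 ratio of these 5 phosphatases was as far from 0 as 0.32. Of other effectors, the antiproliferative gene Btg1 read 1943.0 in the TAZ-deficient pool and 1802.9 in the wild type pool. Zfp36l1, a protein that speeds the decay of AU-rich transcripts, read 1818.0 in the TAZ-deficient pool and 1668.8 in the wild type pool, but its second probe set had a log2 ratio of -0.34. Among the effectors, the lowest log2 ratio at a representing probe set was that of Ccn1, at -0.48. Its second measured probe set was at -0.35. Ccn1 is an immediate early gene and also a known target of TAZ and YAP. Whether the loss of TAZ lowered it was not tested. Socs3, also picked after its values were seen, had a lower log2 ratio at a non-representing probe set (-0.54), with -0.16 and -0.07 at the others. Gadd45b, a stress response gene, also had negative log2 ratios at all 3 probe sets, from -0.37 to -0.24. At a log2 ratio of at least 0.32 in size, 2 of the 23 measured effectors were lower, Ccn1 and Gadd45b, and 0 were higher. Over all measured genes, 7.03% were lower and 5.68% higher by that much.

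**Figure D3:**
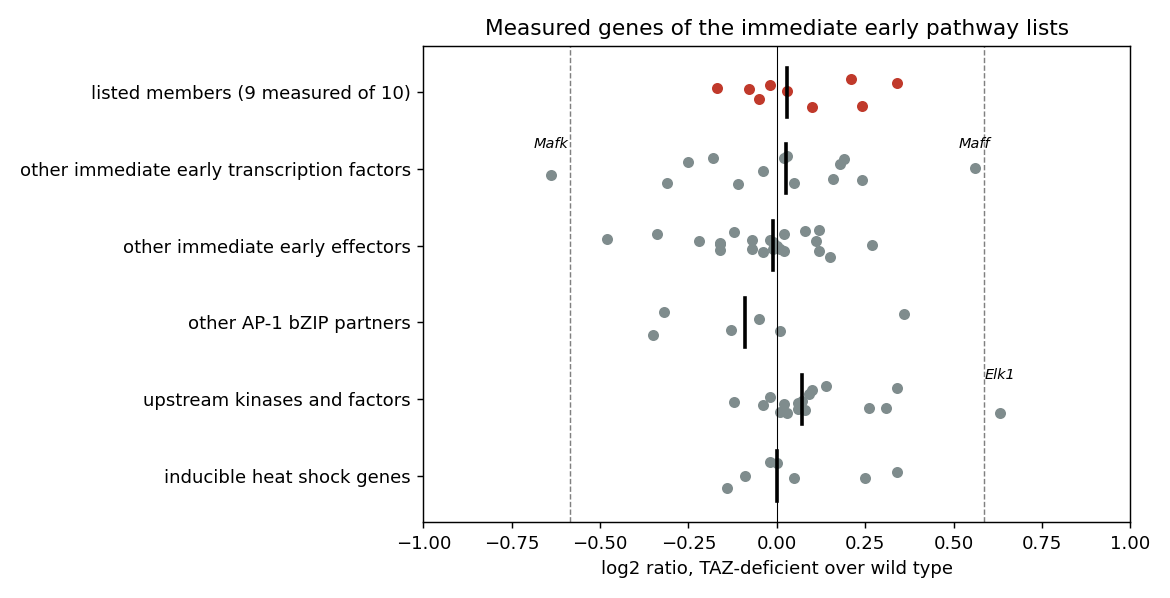
Log2 ratio (TAZ-deficient over wild type) for each measured gene of the 10 listed genes (red) and of the lists set beside them (grey), 1 point per gene at its representing probe set, with a black bar at each median and dashed lines at 1.5-fold; vertical scatter within a list has no meaning. The medians lie between -0.09 and 0.07, and Mafk and Elk1 are the only points beyond 1.5-fold.

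The factors and kinases that switch on immediate early genes were close to wild type signal. Of 22 listed genes 17 had a probe set assigned to them alone, and all 17 were measured. At the representing probe sets, 14 log2 ratios were above 0 and 3 below, against 5627 above and 6378 below over all 12040 measured genes. The median was 0.07, but 0.02 with the median over each gene's probe sets, and 0.11 with median scaling. The 14 to 3 split thus rests on the choice of 1 probe set per gene, and several of these genes had other probe sets of the opposite sign. Elk1, an SRF partner, was the only one 1.5-fold different, where 2.75% of all measured genes were. It read 32.6 in the TAZ-deficient pool and 21.0 in the wild type pool (log2 ratio 0.63). Its second measured probe set read 21.8 in the TAZ-deficient pool and 22.4 in the wild type pool, a ratio of the opposite sign. Srf, chosen after its values were seen, read 159.9 in the TAZ-deficient pool and 126.5 in the wild type pool (log2 ratio 0.34), and at its other probe set 98.3 in the TAZ-deficient pool and 89.8 in the wild type pool (0.13). Elk3, another SRF partner, read 639.4 in the TAZ-deficient pool and 630.0 in the wild type pool, and Atf2, a target of the stress kinases, read 720.6 in the TAZ-deficient pool and 704.6 in the wild type pool. Their other measured probe sets had log2 ratios of 0.06 and -0.19 for Elk3 and of 0.01, -0.23 and -0.09 for Atf2. Creb1, also chosen after its values were seen, was in both directions, with log2 ratios from -0.53 to 0.26 over its 5 measured probe sets.

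Of 7 other basic leucine zipper genes that can pair with AP-1 or related proteins, 6 had a probe set assigned to them alone. All 6 were measured, 2 with ratios above 0 and 4 below (median log2 ratio -0.09). None was 1.5-fold different, against 2.75% of all measured genes. Maf read 693.3 in the TAZ-deficient pool and 539.4 in the wild type pool (log2 ratio 0.36), and its other 4 measured probe sets were between 0.01 and 0.12. Jdp2, a repressor of AP-1 targets, read 108.9 in the TAZ-deficient pool and 138.9 in the wild type pool (log2 ratio -0.35).

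Heat shock genes, induced by protein damage, were examined as a second readout of acute stress in the tissue. All 7 listed genes were measured and none was 1.5-fold different, against 2.75% of all measured genes. The median log2 ratio was 0.00. Apart from Hspa8 and Hspb1, the genes given here were picked after their values were seen. Hspa1b, an inducible HSP70 gene, had the highest ratio, at 97.8 in the TAZ-deficient pool and 77.2 in the wild type pool (log2 ratio 0.34), with 0.53 and 0.38 at its other probe sets. Its near-identical copy Hspa1a read 18.3 in the TAZ-deficient pool and 20.1 in the wild type pool, and the probes of these genes can share signal. Hsph1, a partner of HSP70, had log2 ratios of 0.25 and 0.32. Dnajb1, the co-chaperone most often induced with them, read 507.3 in the TAZ-deficient pool and 506.1 in the wild type pool. The small heat shock protein gene Hspb1 read 571.1 in the TAZ-deficient pool and 607.6 in the wild type pool. Hspa8, the constitutive HSP70 gene, was at 0.05, 0.01 and 0.27 on the log2 scale over the 3 probe sets above the floor on both arrays.

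The ratios of the immediate early genes depended little on the processing alternatives that could change them, apart from that of Klf4. Of 8 alternative floors, scalings, normalizations and probe set rules, all 8 gave a value for Jun, Egr1, Dusp1, Ier2 and Klf4. For Fos, Junb, Atf3 and Nr4a1, which were not measured with the floor at the 75th percentile, 7 did. Over these, the log2 ratio of Atf3 lay between 0.22 and 0.38, that of Junb between 0.15 and 0.27, that of Dusp1 between 0.19 and 0.24 and that of Egr1 between 0.10 and 0.14. Fos lay between -0.17 and -0.12 and Ier2 between -0.08 and -0.05. The direction of the other genes was not fixed: Jun lay between -0.05 and 0.09, Nr4a1 between -0.02 and 0.01 and Klf4 between -0.18 and 0.06. None of the 9 genes was 1.5-fold different under any alternative in which it was measured. Not every alternative could move a ratio. A changed floor leaves a gene above it as it was, and no probe set of these genes was a shared one. The median over probe sets acted only on Jun and Klf4.

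**Figure D4:**
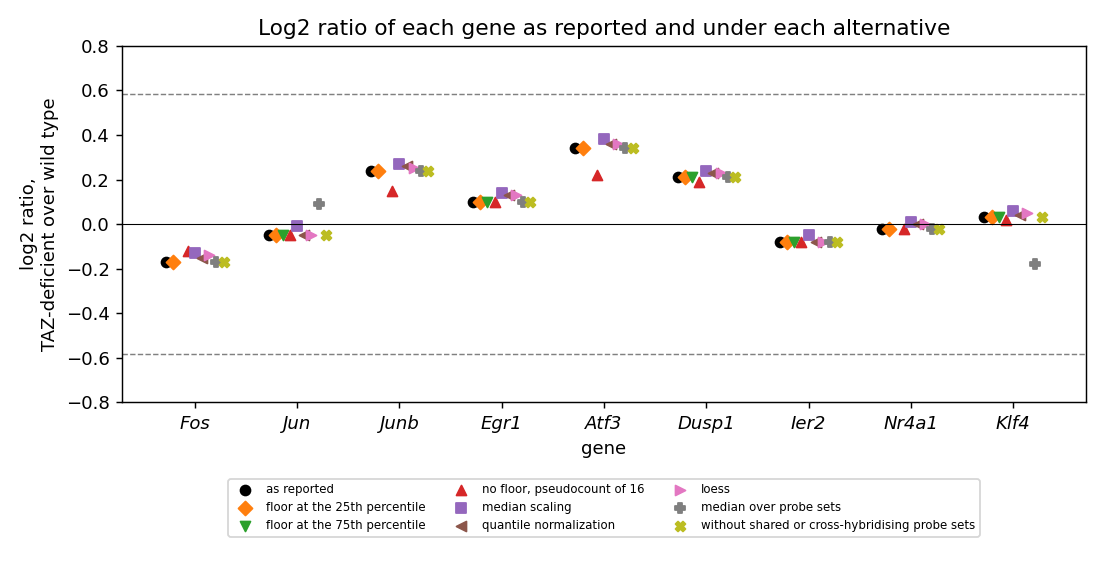
Log2 ratio (TAZ-deficient over wild type) for the 9 measured genes, as reported (black circles) and under the alternatives (coloured symbols; 8 for Jun, Egr1, Dusp1, Ier2 and Klf4, and 7 for the others, which were not measured with the floor at the 75th percentile); dashed lines mark 1.5-fold. All symbols lie between -0.18 and 0.38, and those farthest from the reported value for Jun and Klf4 are the medians over their 2 probe sets.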

How the data were processed

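The deposited table holds 1 intensity per probe set and array. The authors' intensity values are linear and were made with GCOS and MAS5, named without version in the submitters' processing notes; each array has a trimmed mean of 100.0, per the deposited values. Detection calls were not used here, and the sources used here do not give the probes' genome build. Of 45101 probe sets, 64 were controls, 34945 named 1 gene, 932 several and 9160 none in the platform annotation; 34741 symbols were matched through Entrez ID to GRCm38.p6 RefSeq.

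Values below the median of all non-control values (15.2) were set to it before log2 ratios were taken, and a gene was measured if above it on either array (12040 of 18193). A fold against a signal at the floor is a lower bound. Of several probe sets of a gene, that of highest mean log2 signal stood for it. With 1 array per group no test was possible, and a fold of 1.5 served as a rule of size. All 10 genes are named, with every probe set; from other lists, genes at least 1.5-fold different and the 2 with the highest signal, plus those said to be picked afterwards. Members and lists were chosen with earlier results of these data known. The calculation was tested on simulated data. Alternatives were floors at the 25th and 75th percentile, a pseudocount of 16, median scaling, quantile normalization, loess, the median over probe sets, leaving out shared probe sets, and a lower fold (log2 ratio of 0.32). Python 3.11.15, numpy 2.4.6, pandas 2.3.3, scipy 1.17.1 and statsmodels 0.14.6 were used.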

Additional observations from a re-analysis of the deposited data

How the results depend on the processing

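Of 214 values recomputed, 204 moved by less than the disagreement between probe sets, 0.19 on the log2 scale. For counts, the limit was 1.5 times. A change of direction could not be counted, because no recomputed ratio or median was 1.5-fold as reported. Several alternatives could not change a gene's ratio at all, as given above. Among the 10 genes, Klf4 moved to -0.18 with the median over probe sets, and 1 gene, Atf3, was counted as higher at a log2 ratio of 0.32 in place of 0 at 1.5-fold. Their median log2 ratio lay between 0.00 and 0.09, though not over the same genes throughout. With the floor at the 25th percentile all 10 were measured, Fosb included, and the median was 0.00. Among the other immediate early transcription factors, the floor at the 25th percentile gave 1 gene 1.5-fold higher and 2 lower, the floor at the 75th percentile 0 lower, and median scaling 1 higher. Among the effectors the floor at the 25th percentile gave 2 lower. The 1 upstream gene that was 1.5-fold higher, Elk1, was lost (0 higher) with the floor at the 75th percentile, which lies above its signal, with the pseudocount, and with the median over probe sets. Over all genes, the counts at 1.5-fold were 851 higher and 1173 lower of 16150 under the 25th percentile floor, 14 and 13 of 7086 under the 75th, 59 and 75 with the pseudocount, and 183 and 140 with median scaling, against 153 and 178 as reported. At the 75th percentile 5 of the 10 genes were measured. No paired analysis was possible because each group has 1 array. With 1 array per group, the spread between embryos or pools was not measured, so no difference of any size could be set against it.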
